A study of Mus musculus with 2 samples.

Results

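The members described here are annotated introns of 100 kb or more in the adult mouse cerebellum transcriptome. An intron was a gap between consecutive exons of an Ensembl 65 transcript on the mm9 assembly, taken once for each position and strand, and 1738 of 243332 introns (0.714%) reached a length of 100000 bases. The length came from the annotation alone, and no measured value chose the members. The reads of an intron are those of the deposited junction row with the same ends and strand, and an intron without a row was given 0 reads.

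The tissue was cerebellum of C57BL/6J mice, the standard inbred laboratory strain, aged 8 weeks. Both libraries came from mixed-sex littermates and were labelled as a pool of males and females, with no genotype, treatment or time point that differed between them. RNA above 200 nucleotides was depleted of ribosomal RNA, selected for poly(A) tails, given spike-in RNAs and sequenced as read pairs with the strand kept. The 2 libraries form 1 group, share a donor record and are numbered as biological replicates 1 and 2, so the spread between them may be partly technical and no condition could be tested. Values named replicate 1 and replicate 2 below follow the numbers inside the deposited junction table, which name no library, whereas the levels of host genes, in TPM (transcript abundance scaled to transcript length and to the library), come from a table for each library. Annotated introns held 37234123 reads in replicate 1 and 36445486 in replicate 2. Markers of granule neurons (Gabra6 at 336 and 269 TPM), Purkinje neurons (Pcp2 at 1585 and 1349 TPM) and oligodendrocytes (Mbp at 3613 and 4229 TPM) were abundant, and the forebrain markers Tbr1 (0.38 and 0.25 TPM) and Neurod6 (3.49 and 3.53 TPM) were low. The choroid plexus marker Ttr stood at 2086 and 763 TPM, so the libraries differed in that tissue's RNA, whose part in the values below was not tested.

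Introns are cut from the nascent transcript by the spliceosome, which joins the donor site at the 5' end to the acceptor site at the 3' end. Long introns are a known trait of genes for neuronal adhesion molecules, channels, receptors and signalling proteins. RNA polymerase needs a long time to cross them, and an intron still being transcribed or not yet degraded can leave reads between its ends. A spliced molecule is seen as a read that crosses the exon-exon junction, whatever the length of the intron removed.

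To show what such a read contains, the spliced sequence was read for the 9 coding long introns with the most reads, 1 for each gene. Each line holds the last 15 bases of the upstream exon in lower case and the first 15 bases of the downstream exon in capitals, 5' to 3', from the GENCODE M21 transcript of the same identifier on mm10. The change from lower case to capitals is the point from which the intron was removed.
Gpm6b: agtctccaaccatggGTTGCTTCGAATGCT
Chn2: cctccgtgtcctctgATGCTGAGGAATACC
Gria4: ctgtgacaaatgcatTCTGTTCCCAGTATT
Dner: ggcacctattgtcagTTTGTTGCAGATCCT
Sh3gl2: cacaaagccactcagAAAGTGAGTGAGAAG
Ntm: gagcgccaccctcagGTGCACAATTGACAA
Rbfox1: agagagcagctgaggGGTAATCAGGAAGCA
Ppp3ca: acagggtggtgaaagCCGTTCCATTTCCAC
Kcnd2: catgacaacactgggGTATGGCGACATGGT

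The transcript of Gpm6b, a membrane glycoprotein of the proteolipid family, crossed its long intron most often. The intron lay at chrX:162677069-162810569 on mm9, 133501 bases on the plus strand between exons 1 and 2, and held 2292 reads in replicate 1 and 1751 in replicate 2. Chn2, which encodes the Rac GTPase-activating protein beta-chimaerin, followed with 2316 and 1704 reads over 133308 bases at chr6:53990150-54123457. Both pairs of values were far above the median of used long introns, and in both genes replicate 1 was higher.

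Gria4 encodes an AMPA-type glutamate receptor subunit, and its intron 3 (128802 bases, chr9:4665008-4793809, minus strand) held 1721 and 1191 reads. A neighbouring long intron of the same gene, of 126948 bases, held 836 and 609 reads. Dner, a transmembrane protein with EGF repeats that is known from Purkinje neurons, had 1681 and 1213 reads over its first intron of 109831 bases at chr1:84582197-84692027. Replicate 1 was the higher one for each of these introns, at log2 ratios of 0.50 for the larger Gria4 value and 0.44 for Dner after scaling to the total reads.

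Sh3gl2 encodes endophilin A1 of synaptic vesicle endocytosis and had 1422 and 1255 reads over its first intron of 141502 bases. Ntm, an IgLON adhesion molecule, had 1325 and 1149 reads over 232301 bases. Ppp3ca, the catalytic subunit of calcineurin, had 1079 and 1032 reads over 126824 bases. The replicates of these 3 introns lay within 0.17 on the log2 scale of each other.

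Longer introns were among the most used. The splicing factor gene Rbfox1 had 1105 and 1032 reads over a first intron of 415062 bases (chr16:6809342-7224403). Kcnd2, which encodes the potassium channel Kv4.2, had 1117 and 939 reads over a first intron of 496721 bases (chr6:21167414-21664134), the longest annotated intron with any read. Nmnat2, an enzyme of NAD synthesis in axons, had 981 and 862 reads, and the RNA-binding protein gene Celf4 had 963 and 838. The membrane protein gene Aig1 (863 and 869), the AMPA receptor gene Gria1 (931 and 772), the proteoglycan gene Spock1 (803 and 697) and the RNA-binding protein gene Msi2 (693 and 789) completed the 15 introns with the most reads. Of these 15, replicate 2 held more scaled reads in Aig1 and Msi2 and fewer in the other 13.

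Most long introns were in use. Of 1738, 1227 (70.6%) had at least 1 read, against a background of 74.9% of all annotated introns, and 1118 (64.3%) had reads in both replicates, against 68.4%. Another 64 had reads in replicate 1 and none in replicate 2, and 45 the reverse. At least 10 reads were found over 952 introns, at least 100 over 428 and at least 1000 over 42. Used long introns had a median of 49.0 reads with quartiles of 11 and 160. In whole tissue, few cells with a transcript and little of it in each cell cannot be told apart. A count of 0 allows up to 3 reads, counting error only.

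The long introns were few in the total. Together they held 207162 of 73679609 annotated junction reads (0.281%), with 0.291% in replicate 1 (95% Wilson interval 0.2895 to 0.2929) and 0.271% in replicate 2 (0.2692 to 0.2726). The intervals cover counting error only, since reads from amplified libraries are not independent molecules. The 90 introns with the most reads held 50% of those reads. The 1738 introns had 1572 distinct donors and 1509 distinct acceptors, lay in 918 host genes and formed 1274 clusters without overlap between clusters, so they are not independent of each other.

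Most host genes were expressed, but not all. Of 853 host genes with a value, 690 (80.9%) reached 1 TPM in both libraries, against 13089 of 23055 genes with any annotated intron (56.8%). At least 1 long intron had a read in 717 of the 918 host genes (78.1%), and 71.3% of all genes with an intron had a read over an intron of any length. The use of introns of 100 to 500 kb rose with the host level, from 9.28% of 97 introns below 0.1 TPM to 65.5% of 145 at 0.1 to 1 TPM, 80.0% of 599 at 1 to 10 TPM, 80.7% of 585 at 10 to 50 TPM and 88.4% of 181 at 50 TPM or more. Introns of 10 to 100 kb had 10%, 60.2%, 80.6%, 83.6% and 82.6% in the same classes. Introns of 1 to 10 kb had 13.8%, 70.0%, 88.5%, 91.7% and 90.9%. In each class the long introns lay below those of 1 to 10 kb. They were above those of 10 to 100 kb at 0.1 to 1 TPM and at 50 TPM or more, and below them in the other classes.

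**Figure D1:**
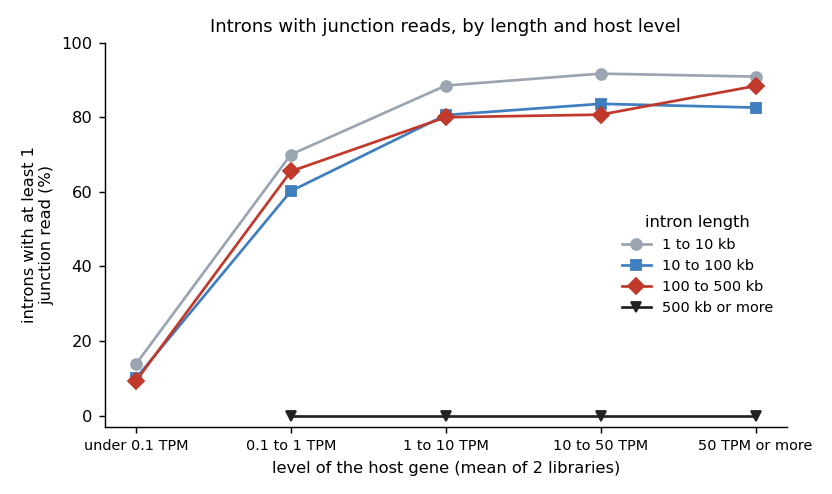
Percent of annotated introns with at least 1 junction read (y axis) in classes of host gene level in TPM, the mean of both libraries (x axis), with 1 line for each class of intron length. The line for 100 to 500 kb runs from 9.28% to 88.4%, beside that for 10 to 100 kb, and the line for 500 kb or more, which starts at 0.1 to 1 TPM, stays at 0.

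Without regard to the host, the share with reads was 73.8% under 1 kb, 76.7% at 1 to 10 kb, 70.9% at 10 to 50 kb, 73.4% at 50 to 100 kb, 71.3% at 100 to 200 kb and 75.3% at 200 to 500 kb. The median number of reads over used introns fell through the same classes, from 152 under 1 kb to 108, 70.0, 59.0, 51.0 and 41.0. The median host level fell as well, from 12.6 TPM under 1 kb to 8.85 TPM at 100 to 200 kb and 8.04 TPM at 200 to 500 kb, and its part in the fall of the reads was not tested. At a host level of 10 to 50 TPM, used introns had a median of 209 reads at 1 to 10 kb, 147 at 10 to 100 kb and 129 at 100 to 500 kb. At 0.1 to 1 TPM the medians were 4.00, 4.00 and 5.00, and under 0.1 TPM each was 1 read, so no fall with length was seen in the low classes.

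Lengths were skewed. The median was 147431 bases with quartiles of 119066 and 197599, and 910 introns lay at 100 to 150 kb, 408 at 150 to 200 kb, 381 at 200 to 500 kb and 39 at 500 kb or more. The X chromosome carried 106 and the Y chromosome 0. First introns of their transcript made up 44.1% of the long introns, against 37.2% of introns of 10 to 100 kb and 18.0% of all. Of 767 long first introns 67.3% were used, with a median of 38.5 reads, and of 971 later ones 73.2%, with a median of 59.0 reads.

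The limit of 100 kb cut through a continuous range. Just above it lay introns of Slc24a2 (100004 bases, 81 and 70 reads), Rbfox3 (100019 bases, 0 reads), 2610035D17Rik (100052 bases, 0 reads), Cox16 (100079 bases, 2 and 6 reads) and Slc8a3 (100090 bases, 112 and 135 reads). Just below it lay introns of Cep128 (99940 bases), Gm12132 (99925 bases) and Dscaml1 (99904 bases) at 0 reads, Hivep2 (99885 bases, 11 and 11 reads) and Gm14697 (99813 bases, 0 and 1 read). Used and unused introns stood on both sides.

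Matched transcripts placed the long introns within the messenger RNA. Of the 1738, 1454 (83.7%) were found in a GENCODE M21 transcript with the same identifier, number of exons and position, and a length within 1%. In protein-coding transcripts 956 of 1240 (77.1%) interrupted the coding sequence, 271 (21.9%) the 5' UTR and 13 the 3' UTR. The 5' UTR share was 21.4% for introns of 10 to 100 kb and 8.56% for all introns. Among first introns the order was reversed, with 32.4% of the long ones in the 5' UTR against 49.3% of those of 10 to 100 kb.

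The place of the cut in the reading frame also differed in share. Of the 956 coding introns 414 (43.3%) lay after the first base of a codon (phase 1), 374 (39.1%) between codons (phase 0) and 168 (17.6%) after the second base (phase 2). The same shares were 36.9%, 42% and 21.2% for introns of 10 to 100 kb and 32.8%, 45.3% and 21.8% for all introns. Among later introns alone, phase 1 took 44.2% of long introns, 36.4% of those of 10 to 100 kb and 32.2% of all. In the printed junctions, Gpm6b, Chn2, Gria4 and Ppp3ca were cut in phase 1, Dner, Sh3gl2 and Rbfox1 in phase 0, and Ntm and Kcnd2 in phase 2. Introns of 1 gene share transcripts, so these shares carry no test.

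The exon bases beside the cut were alike across lengths. The upstream exon ended in AG for 56.3% of long introns, as in the Dner, Sh3gl2, Ntm and Ppp3ca lines above, against 55.5% of all introns. The downstream exon began with G for 45.7%, as in the Gpm6b line, against 48.4%. The upstream exon had a median length of 165 bases against 126. Among first introns alone it had 292 bases against 161, and among later introns 125 against 123. The downstream exon had 134 against 132 bases.

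No annotated intron of 500 kb or more had a read. There were 39 of them in 32 genes, and most of the genes were expressed: 30 of the 39 introns had an adjacent intron under 100 kb, and in 23 those neighbours averaged at least 20 reads. The number of junction rows of any kind was 2477 at spans of 490 to 500 kb, 402 at 500 to 510 kb and 119 at 510 to 520 kb. In all, 2924 rows spanned 500 kb or more, 0 of them annotated, with at most 315 reads. An earlier step stood at 250 kb, from 13263 rows at 240 to 250 kb to 2792 at 250 to 260 kb, but the share of annotated introns with reads was 76.4% of 178 at 200 to 250 kb and 77.7% of 94 at 250 to 300 kb. No source used here names the aligner or its settings. Whether a limit on the span set these zeros was not tested, and an intron that was not used and one that could not be reported cannot be told apart.

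**Figure D2:**
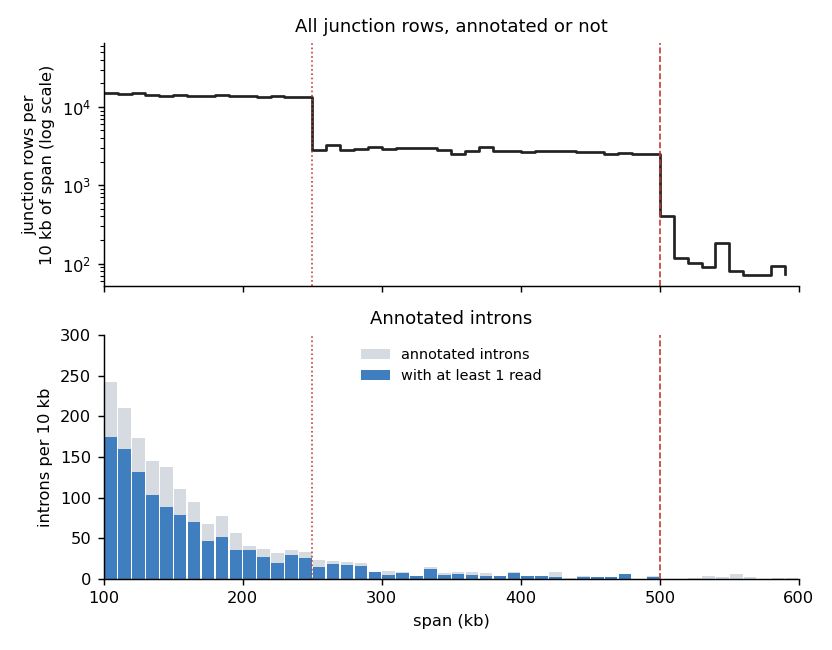
Upper panel: number of junction rows in each 10 kb of span, annotated or not (log scale). Lower panel: annotated introns in each 10 kb of span, with those that have a read in blue. The x axis is the span from 100 to 600 kb, and longer introns are not drawn. The dotted line marks 250 kb and the dashed line 500 kb. Rows fell from 2477 to 402 at 500 kb, and 0 of 39 annotated introns beyond it had a read.

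The longest annotated introns were those of Gm20388 (4384418 bases, chr8:122434840-126819257), Fgfr2 (2956986 bases, chr7:137316454-140273439) and Arfip1 (1244595 bases, chr3:84344545-85589139). The Gm20388 interval held 154 other annotated genes, 53 of them on its own strand, and that of Fgfr2, a growth factor receptor, held 20 on each strand. Next came introns of Kcnip4, a potassium channel-interacting protein, of 1041985 and 1014880 bases. Asic2, an acid-sensing ion channel, followed with 996015, then Immp2l, a mitochondrial peptidase, with 892220 and the adhesion gene Cadm2 with 835283. A further Kcnip4 intron had 802597 bases, and one of the synaptic leucine-rich repeat gene Lrrtm4 had 785807. Neither the junction nor the contig table held a row across 381 kb of the Immp2l intron, nor across 654 kb of a 655429-base intron of Rasgrf2, so the values of these 2 introns rest on the remainder of their length or, for Rasgrf2, on almost none of it.

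Splice sites of the introns of 500 kb or more were in use elsewhere. At least 5 reads joined the donor to another acceptor in 16 of 39, the acceptor to another donor in 25, and either in 29. The acceptor of the Schip1 intron (531142 bases) had 2475 reads in other junctions, 1348 in replicate 1 and 1127 in replicate 2. Dpp6 encodes an auxiliary subunit of Kv4 channels. An intron of 564636 bases had 0 reads, while one of 477466 bases that shares its acceptor had 179 and 143. At the acceptor of the longest Kcnip4 intron, an annotated intron of 406710 bases held 87 and 87 reads. The adhesion genes Cadm2 (555 reads at an acceptor) and Pcdh9 (103 at the donor and 125 at the acceptor) had the same layout. In 10 of the 39 neither end reached 5 reads elsewhere, among them the intron of Fam155a, a subunit of the NALCN channel complex, although its neighbours averaged 787 reads.

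Below 500 kb the longest used introns followed Kcnd2 closely. Macrod2, an ADP-ribose hydrolase, had 47 and 47 reads over 491062 bases, and Tenm2, a teneurin of synaptic adhesion, had 27 and 13 over 479339 bases. The phosphodiesterase gene Pde4d had 2 and 0 reads over 479455 bases. The scaffold gene Grip1 had 11 and 10 over 475478, the postsynaptic adhesion gene Nlgn1 had 56 and 49 over 472564, and the catenin gene Ctnna2 had 252 and 237 over 461237. Il1rapl1, a synaptic receptor-like protein, had 11 and 9 over 470851 bases. At 400 to 500 kb, 22 of 33 introns (66.7%) were used.

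Introns were next compared with their neighbours, since the adjacent introns of a transcript share the level of the gene. The ratio was the log2 of reads plus 1 over the mean reads of the adjacent introns under 100 kb plus 1, wherever the larger value reached 20 reads. Over 1000 long introns the median was -0.55 with quartiles of -3.09 and 0.20. Of these, 528 (52.8%) lay within 2-fold of their neighbours, 397 at 2-fold lower or more and 75 at 2-fold higher or more. The median was -0.49 without the introns of 500 kb or more. Introns of 10 to 100 kb had a median of -0.44 with 56.0% within 2-fold, and those of 1 to 10 kb had -0.15 with 70.6%.

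Introns with and without a shared end were then taken apart. Below 500 kb, 271 later introns whose donor and acceptor belong to no other annotated intron had a median of 0.09, and 203 of them (74.9%) were within 2-fold. The same class had a median of 0.00 with 82.0% within 2-fold at 10 to 100 kb, and 0.01 with 85.3% at 1 to 10 kb. For first introns of this kind the medians were -0.26 at 100 to 500 kb, -0.20 at 10 to 100 kb and -0.12 at 1 to 10 kb. All first introns below 500 kb, shared ends included, had a median of -0.99, and all later ones -0.25. In the median, later long introns without an annotated alternative end thus had about the reads of the shorter introns beside them. Of these long introns 15.1% were 2-fold higher or more, against 8.39% at 10 to 100 kb and 7.07% at 1 to 10 kb. The shares at 2-fold lower or more were 9.96%, 9.65% and 7.64%.

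**Figure D3:**
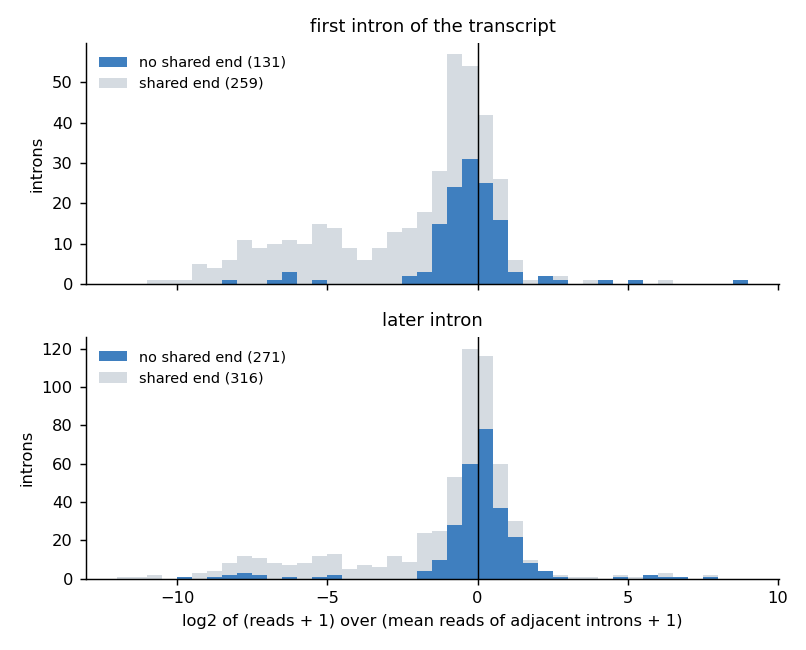
Histograms of the log2 ratio of the reads of an intron of 100 to 500 kb to the mean reads of its adjacent introns (x axis), for first introns (upper panel) and later introns (lower panel). Blue bars count introns with no end in another annotated intron and grey bars, stacked on them, those with a shared end. The blue bars centre near 0, and the long tail to the left is mostly grey.

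The ratio is lowest by construction where an intron with few or no reads has neighbours with many. The secreted neuronal protein gene Nell2 had 0 reads over an intron of 153217 bases, against a neighbour mean of 1703 in replicate 1 and 1594 in replicate 2, and its donor was used by an annotated intron of 8929 bases with 628 and 535 reads. A second intron of Sh3gl2, of 255292 bases, had 0 reads against 1395 and 1329. An annotated intron of 4281 bases with the same donor had 2108 and 1775 reads. Atp5o, a subunit of the mitochondrial ATP synthase, had 0 reads over 240088 bases against 906 and 1022, and an annotated intron of 831 bases with its donor had 2057 and 2365. Lhfp had 0 reads over 188566 bases, whereas an annotated intron of 188038 bases with the same acceptor had 641 and 546. Rtn1, a reticulon of the endoplasmic reticulum, had 1 and 3 reads over 184771 bases, whereas an annotated intron of 12989 bases with the same acceptor had 6082 and 5826.

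The highest ratios came from transcripts whose adjacent annotated introns under 100 kb were hardly read. Adjacent introns of 100 kb or more do not enter the ratio. The kinase gene Prkce had 496 and 418 reads over its second intron of 184614 bases and 3.00 and 0 over the neighbour, and 379 and 323 over the next long intron of 120698 bases. Pid1 had 109 and 115 reads, Nrg3, an ErbB4 ligand, 48 and 44, and Agmo, an ether lipid enzyme, 34 and 49. In each, the neighbours under 100 kb were at 0. Beside the Nrg3 intron lay a long one of 459873 bases with 70 and 45 reads. An intron of ENSMUSG00000058361 had 222 and 210 reads, also with a neighbour at 0.

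Replicates were compared over the 815 long introns with at least 20 reads. Of these, 33 (4.05%) were 2-fold apart or more after scaling and a pseudocount of 1. The background was 2.58% of all annotated introns with at least 20 reads. The 33 long introns were higher in replicate 1 in 21 cases (background 1.45%) and in replicate 2 in 12 cases (background 1.13%). Regardless of sign, the log2 ratio had a median of 0.28 for long introns and 0.20 for all. The background was not matched to the long introns in number of reads, so these values were not compared at equal depth. Of 261 long introns with at least 200 reads, 0 were 2-fold apart. Log2 reads of the replicates had a Pearson correlation of 0.977 over the 815 introns, which share both libraries.

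Most introns far apart had few reads. Replicate 1 was higher for the contactin gene Cntn4, with 29 and 3 reads, for introns of the catenin gene Ctnna3, with 23 and 5 and with 27 and 9, and for Abr, a GTPase regulator, with 46 and 12. It was also higher for the ubiquitin ligase gene Znrf3, with 27 and 9. Replicate 2 was higher for the receptor phosphatase gene Ptprd (5 and 34), the protocadherin gene Pcdh11x (5 and 20), the nuclear protein gene Tox (5 and 16), the copine gene Cpne4 (7 and 21) and Il1rapl1 (6 and 17). With 1 group of 2 libraries these differences carry no test.

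**Figure D4:**
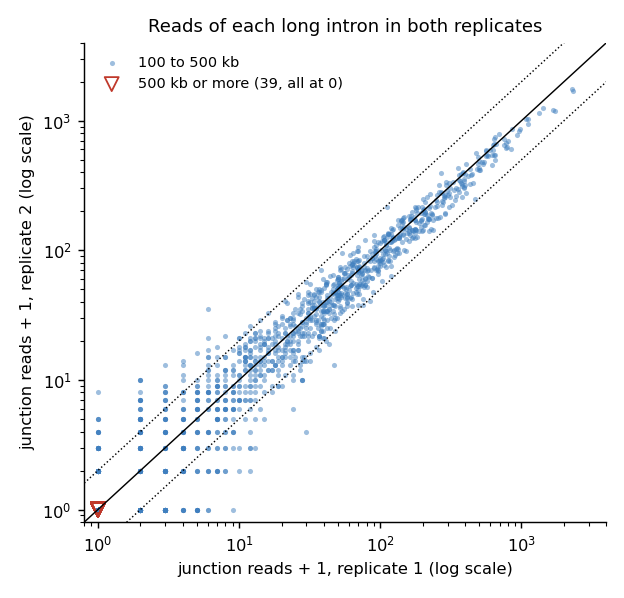
Junction reads plus 1 of each long intron in replicate 1 (x axis) and replicate 2 (y axis), both on log scales. Dots are introns of 100 to 500 kb, the triangle stands for the 39 of 500 kb or more at 0 reads, the solid line marks equal values and the dotted lines 2-fold differences. Dots follow the solid line up to the highest values, such as 2292 and 1751 for Gpm6b, and spread widest at low reads.

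Host genes differed in how many long introns they held. A single one was found in 551 of the 918 genes, 2 or more in 367 and 5 or more in 65. Pde4d had the most, 16 with 14 donors and 7 acceptors, of which 8 were used with 286 reads in all. Pcdh15, a protocadherin of sensory hair cells, had 15, of which 6 were used with 72 reads. The synaptic scaffold gene Dlg2 had 11 (8 used, 777 reads), Ptprd 11 (10 used, 601 reads) and Fhit, at a known fragile site, 11 (8 used, 128 reads). Oprm1, the mu opioid receptor gene, had 6, and 0 had a read at host levels of 0.96 and 1.32 TPM.

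Functional lists of genes were described beside the 70.6% used and the median of 49.0 reads over all long introns. Transmitter receptors stood highest in use: 44 of 45 introns (97.8%) in 20 genes, with a median of 160 reads. The list does not hold every receptor gene. Oprm1, with 6 long introns and 0 used, lies outside it, so this rank depends on the genes chosen. Besides Gria4 and Gria1, the kainate receptor gene Grik2 had 390 and 352 reads. The median ratio to neighbours was 0.20 over 37 receptor introns. It was negative in every other list, from -0.034 in IgLON and immunoglobulin adhesion genes to -0.82 in scaffold, cytoskeletal and release genes. First introns, whose ratios were lower, made up 8 of the 45 receptor introns and 37 of 60 in ion channel genes. Their part in these medians was not tested. Another long intron of Grik2, of 101009 bases, had 285 and 188 reads, so its replicates lay further apart.

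Adhesion genes held many of the long introns. Of 41 in IgLON and immunoglobulin adhesion genes, 31 (75.6%) were used, with a median of 114 reads. Lsamp had 795 and 631 reads over 355383 bases, and Negr1 had 779 and 677 over 156512 bases and 648 and 546 over 297084 bases. In neurexins, contactins and other synaptic adhesion genes 105 of 122 (86.1%) were used with a median of 31.0, among them the presynaptic neurexin gene Nrxn3 (659 and 661) and the contactin gene Cntn1 (309 and 302). Cadherins, protocadherins and catenins had 40 of 56 (71.4%) with a median of 103, led by Pcdh9 (537 and 462) and the delta-catenin gene Ctnnd2 (309 and 255).

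Channels, scaffolds and signalling genes came near the share of all long introns or above it. Ion channels and their subunits had 45 of 60 (75%) used with a median of 128 reads. After Kcnd2 came Fgf12, an intracellular partner of sodium channels, with 625 and 593 reads, and the Kv4 auxiliary gene Dpp10, with 302 and 268. Scaffold, cytoskeletal and release proteins had 89 of 107 (83.2%) with a median of 47.0, among them 2 introns of Syt1, the calcium sensor of vesicle release, with 757 and 721 and with 771 and 613. Of 121 introns in kinase and signalling genes 83.5% were used with a median of 52.0, led by the protein kinase C gene Prkcb with 622 and 540.

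Nuclear and RNA-binding proteins differed in level. RNA-binding proteins had 21 of 24 (87.5%) used with a median of 110 reads, and Rbfox3, which encodes the neuronal antigen NeuN, had 613 and 456. Transcription factors and chromatin regulators had 63 of 87 (72.4%) with a median of 24.0, among them the nuclear factor I genes Nfib (207 and 196) and Nfia (194 and 169). Fragile-site and large housekeeping genes had 55 of 75 (73.3%) with a median of 59.0, led by the RNA demethylase gene Fto (558 and 591). In all, 594 of 738 introns in listed genes (80.5%) and 633 of 1000 in other genes (63.3%) were used, with medians of 50 and 48 reads. Use rose with the host level, as given above, and the lists were not matched on it. Its part in these shares was not tested.

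Other genes lay wholly within many long introns. This was so for 762 (43.8%), with a gene on the same strand in 401 and on the opposite strand in 549. Below 500 kb, 77.5% of 967 introns without such a gene were used, 71.4% of 350 with a gene on the opposite strand alone and 59.7% of 382 with one on the same strand. Of 46 introns with 5 or more other genes inside, 28.3% were used. Median lengths were 140019 bases without such a gene, 153391 with one on the opposite strand alone and 155034 with one on the same strand. With 5 or more genes inside the median was 160277 bases. These classes were not matched on length or on the host level, with which use rose. The part of either in these shares was not tested. Introns of the Ugt1a cluster, whose glucuronosyltransferases splice alternative first exons to common ones, held up to 8 genes on the same strand, and those of Ugt1a10 had 0 reads and those of Ugt1a7c 4 reads and 1 read.

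Unannotated junctions also used the ends of long introns. With at least 5 reads, 636 junctions inside a long intron joined one annotated end to an unannotated one, 241 at the donor and 395 at the acceptor, in 289 genes. They held 15265 reads with a median of 9.00, and 596 had reads in both replicates. In 179 cases the unannotated junction had more reads than the long intron itself, and 76 long introns at 0 reads had such a junction. The most reads were in the predicted gene Gm38393, 405 and 517, where the annotated intron of 132836 bases had 36 and 40. Ank3, the ankyrin of axon initial segments, had 180 and 152 beside 24 and 34 over its 274131-base intron, and the calcium channel gene Cacna1c had 117 and 95 beside 0. Msra, a methionine sulphoxide reductase, had 224 and 211 beside 193 and 193. No count for shorter introns is given here, so these values do not set long introns apart from others.

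Pairs of these junctions framed 75 possible exons of at most 500 bases inside long introns of 59 genes. Their median length was 89.0 bases, 31 had a length divisible by 3, 69 had both junctions in both replicates and 3 overlapped an annotated exon. In Iqsec1, an ARF exchange factor, 45 bases were framed by 34 and 18 reads on the donor side and 182 and 155 on the acceptor side, inside an intron with 389 and 309. The cadherin gene Cdh18 framed 85 bases with 26 and 34 and with 10 and 22 reads, inside an intron of 624158 bases at 0. A further possible Cdh18 exon, of 80 bases, overlapped this one, so the 75 are not all separate. Fgf14 framed 40 bases with 14 and 15 and with 14 and 9, inside an intron of 540217 bases at 0. In these last 2 genes the exon divided the intron into junctions each below 500 kb. No sequence check of these exons was made, and no count for shorter introns is given here.

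Signal between the ends was read from the deposited contigs, stretches of aligned reads on 1 strand that pool both replicates, so these values have no replicate spread. The contig rows used here end before the junction rows on 9 chromosomes, and 54 long introns past the last contig, 39 of them with junction reads, were not analysed here. Over the other 1684, 60% of 231945759 bases outside exons of the same strand lay in contigs on the strand of the gene and 3.37% in contigs on the other strand. With the 54 counted as empty the first share was 57.5%. Introns of 50 to 100 kb had 59.7% and 2.79%, and those of 1 to 10 kb 60.6% and 6.32%. Per intron, the median cover was 61.2% in sense and 0.589% in antisense, and the sense signal was the higher in 1554 of 1684.

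Cover rose with the level of the host gene and went with junction reads. For introns below 500 kb it was 5.01% with a host under 0.1 TPM, then 21.9%, 57.9%, 84.5% and 88.9% in the classes used above. Introns of 10 to 100 kb had 2.16%, 11.8%, 53.0%, 84.3% and 91.8%. Long introns with reads had 69.9% of their bases in sense contigs, and those below 500 kb without reads 37.8%. Over 1231 clusters, sense signal and host RPKM had a Spearman correlation of 0.760 and antisense signal 0.342, as a description, since both come from the same libraries. The introns of 500 kb or more, at 0 junction reads, had 55.9% in sense contigs, with a median of 74.1% over the 35 reached. Only exon bases were left out. This cover can therefore include shorter introns that share an end and introns of same-strand genes inside, whose part was not tested.

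Sense cover fell along the introns. With each of 1231 long introns divided into 10 equal stretches, it went from 68.5% in the first stretch to 47.3% in the last. Antisense cover was 3.62% and 3.41%. Sense cover of 426 introns with a host at 1 to 10 TPM went from 71.1% to 36.0%. Signal, in aligned bases scaled to contig length and to all aligned bases, was 0.150 in the first stretch, 0.215 in the next and 0.0575 in the last, leaving out contigs with a signal over 100. The part of overlapping annotated starts in this order was not tested.

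**Figure D5:**
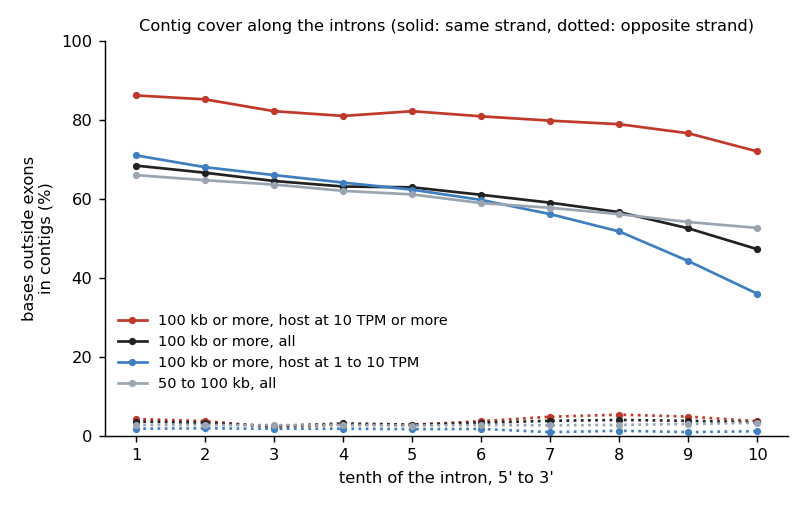
Percent of exon-free bases in contigs (y axis) in 10 equal stretches of the long introns from the 5' end to the 3' end (x axis), for the sense strand (solid) and the antisense strand (dotted). The black line shows 1231 long introns and the grey line 2482 introns of 50 to 100 kb. Blue is for 426 long introns with a host at 1 to 10 TPM and red for 547 at 10 TPM or more. Sense cover of the 1231 long introns falls from 68.5% to 47.3%. That with a host at 10 TPM or more falls from 86.3% to 72.1%, and that of introns of 50 to 100 kb from 66.1% to 52.7%.

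A few introns had far more signal than the rest, whose median was 0.0733. The highest, 11.4 in ENSMUSG00000085916, came from 1 contig of 261 bases that held 100% of the intron's aligned bases at 0 junction reads. In Cmss1, at 6.73, a contig of 710 bases held 99.6%, and in Camk1d, at 1.20, one of 1505 bases held 87.6%. Kcnd2, at 2.53, was covered over 93.2% of its intron, with 17.6% of the aligned bases in its strongest contig. Rbfox1 followed at 1.78, the 1014880-base Kcnip4 intron at 1.75 and Rora, the nuclear receptor of Purkinje development, at 1.5 with 91.3% cover and 0 junction reads over 542102 bases. In ENSMUSG00000085916, Cmss1 and Camk1d the value thus described a single short contig.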

How the data were processed

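Poly(A)+ RNA of 2 cerebellum libraries was analysed, both in 1 group. The deposited junction table of the authors gives read counts for each junction and replicate on mm9, with an irreproducibility fraction between replicates. The authors' deposited contig table gives a signal, aligned bases scaled to contig length and to all aligned bases, pooled over both replicates. Host levels are the deposited TPM for each library and the RPKM in the authors' gene table. The aligner is not given in the sources used here. Introns were built from the exon rows, joined to junctions by ends and strand, and merged with contigs using bedtools 2.31.1 (Python 3.11.15, pandas 2.3.3, numpy 2.4.6, scipy 1.17.1, matplotlib 3.10.9). Replicates were scaled to their annotated junction reads. The code was tested on simulated data. Totals of 37234123 and 36445486 reads set the precision. Named introns were those with the most reads, the longest, the longest used, the highest and lowest ratios to neighbours, the farthest apart between replicates, those nearest the length limit, and the leading ones of each list. Genes outside these sets, such as Oprm1 among counts per gene, were chosen after their values were seen. The members and lists were chosen with earlier results of these data known. Alternatives changed read minimums, length limits, irreproducibility, pseudocounts, neighbours and replicates. Some genes are not reported here. No test was made, since there is no second group.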

Additional observations from a re-analysis of the deposited data

How the results depend on the processing

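Of 38 alternatives, 8 were classed as the same, 29 as moved and 1 as reversed. These classes do not rank the size of a change. Of the 636 unannotated junctions, 521 remained at an irreproducibility of 0.1 or less, classed as the same. With the other end anywhere on the strand there were 766, also classed as the same. A contig share of 57.6% beside 57.5% was classed as moved. The share of long introns with reads, 70.6%, was 64.3% with a read in each replicate, 54.8% with at least 10 reads, 68.3% at 200 kb or more, 72.4% at 50 kb or more, 59.9% at an irreproducibility of 0.1 or less, 76.2% in transcripts with 5 or more exons, 72.2% under 500 kb, and 66.9% to 68.0% with 1 replicate left out. The median of 49.0 reads was 85.0, 41.0, 55.5 and 72.0 with at least 10 reads, 200 kb or more, 50 kb or more and irreproducibility of 0.1 or less, and 27.0 to 29.0 with 1 replicate left out, which holds fewer reads. The log2 ratio to neighbours, -0.55, was -1 against all other introns of the transcript, -0.59 with at least 100 reads, -0.22 with one value per gene and -0.49 under 500 kb, and reversed to 0.09 for later introns under 500 kb with ends in no other annotated intron. The 636 unannotated junctions became 3587 with at least 1 read and 149 with at least 20 reads, and 339 to 354 with 1 replicate left out. The contig share of 57.5% was 57.6% with exon bases kept, 54.3% with contigs at an irreproducibility of 0.1 or less, 58.2% with exons of both strands and 1000 bases either side removed, 59.1% at 200 kb or more and 60% without introns past the last contig. The 33 introns 2-fold apart became 5 with at least 50 reads. The alternatives for introns under 500 kb, for shared ends and for the last contig were added after seeing the data. Few reads limit single introns, and a count of 0 allows up to 3 reads. No paired analysis was possible because both libraries belong to 1 group.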
